A study of Homo sapiens with 6 samples.

Results

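Messenger RNA levels were compared between 2 libraries of 786-O cells, those labelled PHYHD1-WT and PHYHD1-MT (WT and MT below). A named gene entered the comparison when its level was 1 or more in at least one of them, which 11013 of 19669 named genes did; 6589 reached 10 and 734 reached 100. Levels are in FPKM, fragments scaled to gene length and library size, and each difference is log2((WT + 1)/(MT + 1)), so positive values are higher in WT and the changes of low genes are understated. 786-O is an established line of clear cell renal carcinoma without working VHL, the protein that marks hypoxia-inducible factors for degradation. A further label, EV, stands for the empty vector, and each of the 3 labels has 1 RNA-seq and 1 Ribo-seq library. The series title names wild-type PHYHD1 and, for MT, a form without residues 107 to 130, whereas the design text calls MT the line overexpressing PHYHD1 and WT an untreated wild-type group. Cells grew in 3 dishes per condition, and whether the dishes were pooled is not given, nor is it given how the lines were selected or how many clones they hold. With 1 library per label no difference has a replicate check and no test was possible: every value below compares 2 libraries, not 2 conditions.

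PHYHD1 belongs to the dioxygenases that use iron and 2-oxoglutarate to hydroxylate their substrates, and is a relative of PHYH, the peroxisomal enzyme that starts the breakdown of phytanic acid. Clear cell renal carcinoma arises from the renal tubule, and loss of VHL leaves its hypoxia-inducible factors active, which drives genes of angiogenesis, glucose uptake and glycolysis. An mRNA level measured in a pool of cells cannot tell fewer cells with a transcript from less transcript per cell.

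PHYHD1 (ENSG00000175287.19) mRNA was at 118 FPKM in WT, 109.5 in MT and 0.0920 in EV. Both libraries that carry its name were thus far above EV and differed from each other by 0.10 on the log2 scale, so the comparison is between libraries with like amounts of PHYHD1 mRNA. The level in WT goes against the design text's account of WT as untreated. A value per gene does not show whether residues 107 to 130 are encoded, so the deletion itself was not checked. In Ribo-seq, which counts the mRNA fragments covered by ribosomes, PHYHD1 was at 222 TPM in WT and 905 in MT. Reference genes differed little in mRNA: ACTB was at 1889 and 1815 FPKM, GAPDH at 2386 and 2359.8, and the general transcription factor gene TBP at 9.31 and 9.42 in WT and MT.

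The mRNA profiles of WT and MT were close. The median log2 ratio was 0.00 over all measured genes, 5617 of them were above 0 and 5393 below, and 9446 (85.8%) lay within 1.25-fold; among genes at 10 FPKM or more 91.3% did. The spread narrowed with the level: the robust SD of the log2 ratio across genes was 0.27 at a mean level of 1 to 3 FPKM, 0.18 at 10 to 30 and 0.10 at 300 or more. That spread mixes differences between the cells with error, and it is the only yardstick here. A difference of 2-fold was met by 32 genes higher in WT (0.291%) and 24 lower (0.218%), 56 in all (0.508%), and a difference of 1.5-fold by 356 (3.23%). At 10 FPKM or more it was met by 12 higher (0.182%) and 3 lower (0.0455%), and a difference of 1.5-fold by 45 higher (0.683%) and 51 lower (0.774%). Column sums of the 3 RNA-seq libraries lay between 459938 and 469859 FPKM. Mitochondrially encoded genes took 15.1% of the sum in WT and 15.4% in MT. The most frequent ratio of WT to MT among 1314 genes of low level was 1. That ratio is not a measure of read depth, which is unknown. The plot of log2 ratio against level shows all measured genes.

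**Figure D1:**
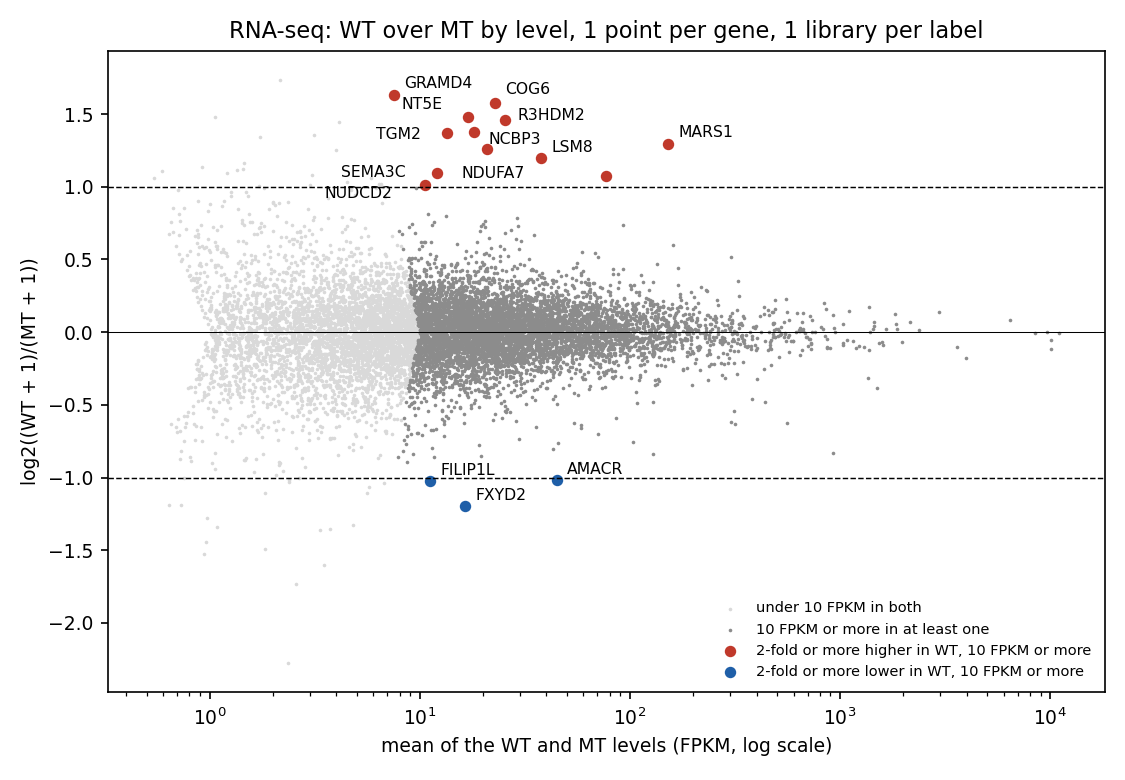
Log2((WT + 1)/(MT + 1)) of each measured gene against the mean of its WT and MT levels in FPKM (log axis); dashed lines mark 2-fold, and the genes past it at 10 FPKM or more are named except 1. The cloud is centred on 0 and narrows with level, with 12 such genes above the upper line and 3 below the lower one.

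The 12 genes at 10 FPKM or more that were at least 2-fold higher in WT fall into unlike functions: an aminoacyl-tRNA synthetase, a Golgi tether, RNA-binding proteins, a respiratory chain subunit, and a set of cell surface and secreted proteins. MARS1, which charges the methionine tRNA, was the most abundant, at 215 FPKM in WT, 86.9 in MT and 73.4 in EV (log2 ratio of WT to MT 1.30). R3HDM2, a protein with an R3H nucleic acid-binding domain, was at 37.8, 13.1 and 10.7 FPKM in WT, MT and EV (1.46). COG6, a subunit of the conserved oligomeric Golgi complex that tethers vesicles, was at 34.5, 10.9 and 11.8 (1.58). NCBP3, which binds the mRNA cap, was at 26.6, 9.63 and 9.94 (1.38). In these 4 genes WT stood alone: it was also at least 2-fold above EV, and MT was within 0.27 of EV on the log2 scale. In the other 8, WT was less than 2-fold above EV, although SEMA3C came close to it, at 16.7 FPKM in WT and 8.43 in EV.

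R3HDM2 and MARS1 are neighbours on chromosome 12, with no other measured gene between them in the RefSeq order (GRCh38.p14). Their own outer neighbours were less different: SHMT2, on the side of R3HDM2, was at 95.4 FPKM in WT and 70.4 in MT, and DDIT3, on the side of MARS1, at 13.6 and 11.7. COG6 lies on chromosome 13 between LHFPL6 (7.30 and 6.63) and FOXO1 (1.04 and 0.560), and NCBP3 on chromosome 17 between HASPIN (7.38 and 6.15) and CAMKK1 (9.65 and 9.77). Around all 15 genes past 2-fold, the 28 nearest measured genes that were not past it themselves had log2 ratios from -0.44 to 0.43. The neighbours were looked up after the values were seen.

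The cell surface and secreted proteins among the 12 included NT5E and SEMA3C. They were brought together, and are given with TGM2, after the values were seen. EV lay between WT and MT in NT5E, TGM2 and SEMA3C, as in 9 of the 12 genes. NT5E (CD73), the surface enzyme that turns AMP into adenosine, was at 25.5 FPKM in WT, 8.49 in MT and 16.6 in EV, 3.0 times as high in WT as in MT. TGM2, a transglutaminase that crosslinks proteins, was at 19.9, 7.09 and 14.9 (1.37). SEMA3C, a secreted semaphorin, had EV nearer to MT, at 16.7, 7.29 and 8.43 (1.09).

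GRAMD4, NDUFA7, LSM8 and NUDCD2 were also among the 12. GRAMD4, a membrane-associated protein with a GRAM domain, had the highest log2 ratio of all genes at 10 FPKM or more, 1.63, with 11.9 FPKM in WT, 3.16 in MT and 9.02 in EV. NUDCD2, a NudC-domain cochaperone, was at 14.4, 6.66 and 15.3; in both of these MT was the library that stood alone, at least 2-fold below EV. NDUFA7, a subunit of respiratory complex I, was at 29.8, 11.9 and 19.8, and LSM8, of the ring bound to U6 snRNA, at 52.8, 22.5 and 37.5, both with EV in between. NUDCD2 (1.01) was the gene just inside the 2-fold rule, and ZNF286A (0.99, 13.1 and 6.09 FPKM in WT and MT) the one just outside.

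Lower in WT by 2-fold at 10 FPKM or more were FXYD2, AMACR and FILIP1L. FXYD2, the gamma subunit of the renal sodium pump and a marker of the kidney tubule, was at 9.55 FPKM in WT, 23.2 in MT and 20.5 in EV (-1.20). AMACR, the racemase that lets peroxisomes and mitochondria oxidise branched-chain fatty acids, was at 29.2, 60.2 and 50.2 (-1.02). FILIP1L, a relative of the filamin-interacting protein FILIP1, was at 7.0, 15.3 and 12.7 (-1.02). In all 3 EV lay between the others and closer to MT. AMACR was the gene just inside the rule, and CDH6, a kidney cadherin at 40.03 and 75.6 FPKM in WT and MT (-0.90), the one just outside. With a pseudocount of 5 in place of 1, SEMA3C, NUDCD2 and the 3 genes lower in WT were short of 2-fold, and NUDCD2 also when the ratios were centred on their median or the upper quartiles set equal.

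**Figure D2:**
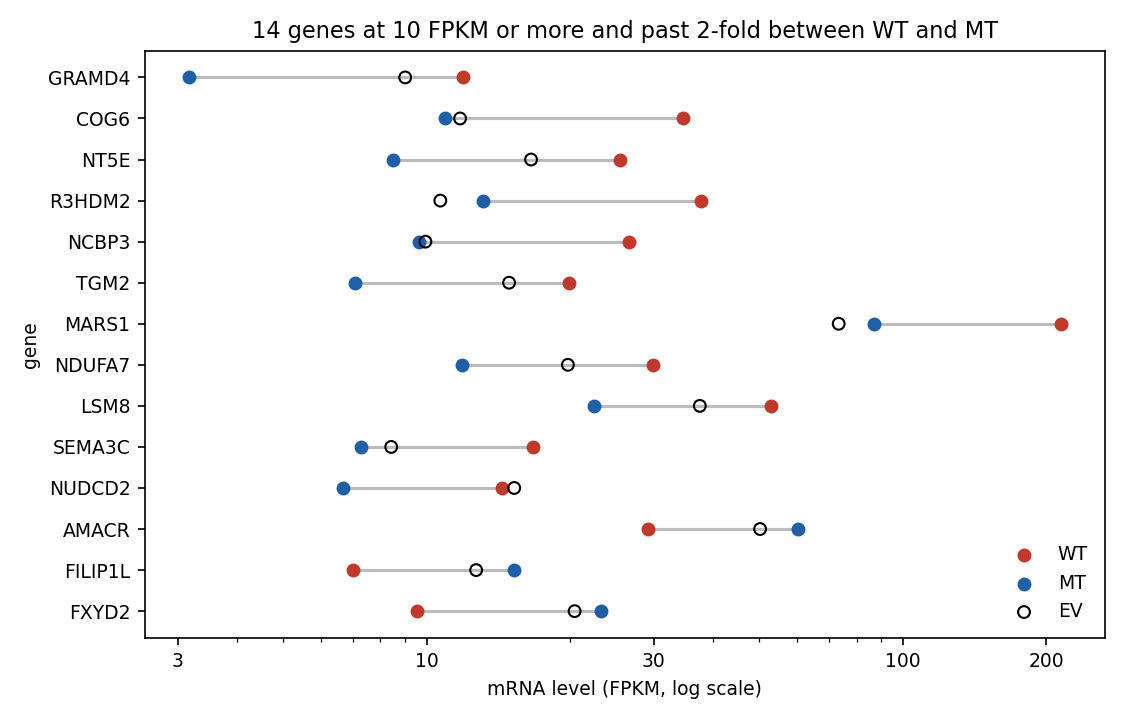
mRNA levels in FPKM (log axis) of 14 of the 15 genes at 10 FPKM or more and past 2-fold between WT (red) and MT (blue), with EV as an open circle; 1 library per label. For COG6, NCBP3, R3HDM2 and MARS1 the EV point lies by MT and WT stands apart, while for GRAMD4 and NUDCD2 it is MT that stands apart.

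Among the 734 most abundant genes, at 100 FPKM or more, 2 were past 2-fold (0.272%), MARS1 among them, and past 1.5-fold there were 4 higher in WT (0.545%) and 7 lower (0.954%). Higher in WT were ERRFI1, a feedback inhibitor of EGFR, at 116 FPKM in WT and 69.2 in MT, and PSAT1, an enzyme of serine synthesis, at 193 and 127. The metallothionein MT2A (356 and 248), the hyaluronan receptor CD44 (156 and 112) and PLK2, a polo-like kinase (100.3 and 75.8), were among the 10 highest without reaching 1.5-fold. Lower in WT were CD24, a sialoglycoprotein of the cell surface, at 667 FPKM in WT against 1186 in MT, and ANXA4, an annexin of epithelia, at 92.5 against 166. PDZK1, which anchors transporters at the brush border of the proximal tubule, was at 76.9 against 131, and ALDH1A1, an aldehyde dehydrogenase that makes retinoic acid, at 239.9 against 368. The growth factor binding protein IGFBP3 was at 439 against 677 and PRR11 at 68.4 against 104. Fibronectin (FN1, 255 against 371), the network collagen COL8A1 (89.8 against 126) and the glucuronosyltransferase UGT1A6 (107 against 149) were also among the 10 lowest, short of 1.5-fold. UGT1A6 shares exons with the other UGT1A genes, so its value may be split among them. In every one of the 10 lowest, EV was nearer to MT than to WT.

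Genes of amino acid supply and tRNA charging were higher in WT as groups, by small amounts. Of the 20 cytosolic aminoacyl-tRNA synthetases, 19 were above 0, with a median log2 ratio of 0.23 against 0.00 over all genes. MARS1 was 1 of them and the other synthetases did not reach 1.5-fold; YARS1, for tyrosine, was at 107 FPKM in WT, 79 in MT and 107 in EV, and QARS1, for glutamine, was the member below 0, at 47.3, 56.1 and 52.1. Against EV the medians of this list were 0.00 in WT and -0.21 in MT. ATF4 is the factor through which the integrated stress response acts on transcription. Of its 33 measured targets 28 were above 0, with a median of 0.24; PSAT1 was the member past 1.5-fold at 10 FPKM or more. DDIT4, an inhibitor of mTORC1, was at 128, 97.5 and 161 in WT, MT and EV, and ATF4 itself, chosen like QARS1 after its values were seen, at 188, 157 and 183. Serine, glycine and one-carbon enzymes had 12 of 14 above 0 and a median of 0.22; MTHFD2, the mitochondrial folate enzyme, was at 196, 144 and 182. These 3 lists share members, PSAT1 and MTHFD2 among them, so their medians are not separate observations.

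ATF4 binds with C/EBP partners at a composite element, searched here as TGATGNAA on both strands in the 250 bases before RefSeq start sites (GRCh38.p14). Of the ATF4 targets with a promoter in that set, 5 of 27 (18.5%) held it, and of the aminoacyl-tRNA synthetases 3 of 16 (18.8%), against 1061 of 27305 genes (3.89%) with a promoter and 2.23% of the measured ones. Of the genes past 1.5-fold it was in 5 of 138 higher in WT (3.62%) and 2 of 146 lower (1.37%). The windows of 3 targets, chosen after their values were seen, are shown because their mRNAs were higher in WT with the list; capitals mark the match, and each is read 5′ to 3′ on the gene's strand. ASNS makes asparagine, and AARS1 and GARS1 charge the tRNAs for alanine and glycine.
ASNS, chr7:97872449-97872496, minus strand: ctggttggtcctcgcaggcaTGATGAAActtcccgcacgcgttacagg
AARS1, chr16:70289666-70289713, minus strand: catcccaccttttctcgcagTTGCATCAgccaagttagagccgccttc
GARS1, chr7:30594825-30594872, plus strand: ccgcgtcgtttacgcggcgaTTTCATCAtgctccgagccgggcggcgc
ASNS mRNA was at 54.6 FPKM in WT and 43.3 in MT, AARS1 at 78.4 and 66.1, and GARS1 at 242 and 195. A match is a description of the letters and not a measured binding site.

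Other genes of protein synthesis divided between small positive medians and none. Ribosome biogenesis factors had 36 of 40 above 0 and a median of 0.17, with the nucleolar proteins NPM1 at 1160.5 FPKM in WT and 1049 in MT and NCL at 594 and 508. tRNA modification enzymes had 31 of 40 above 0 (median 0.14), among them NSUN2, a cytosine methyltransferase, at 73.5 and 65.6. Translation initiation factors had 28 of 33 above 0 (0.09), with EIF4A1 at 527 and 451, and heat shock proteins and chaperonins 24 of 28 (0.13), with HSPA8 at 893 and 777. No member of these 4 lists reached 1.5-fold at 10 FPKM or more. The 78 cytosolic ribosomal protein genes had a median of -0.03, with RPS2 at 2199.8 in WT and 2093 in MT, and the 81 mitochondrial ribosomal protein genes one of 0.04.

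Interferon-stimulated genes were mostly higher in WT. Of 60 listed genes 49 were measured, 36 were above 0, and the median was 0.20. Of the 23 at 10 FPKM or more, 3 were past 1.5-fold upward and 1 downward, where 0.683% and 0.774% of all genes at that level were. IFI44, a cytoplasmic antiviral protein, was at 25.5 FPKM in WT, 15.1 in MT and 21.9 in EV (0.72). The paralogs IFIT3 and IFIT2, which bind viral RNA in complexes, were at 43.1, 26.7 and 42.1 (0.67) and at 18.3, 11.7 and 19.8 (0.61). In each of these 3, MT was the library that stood apart from EV. RSAD2 (viperin), under 10 FPKM, was at 4.53, 1.62 and 4.72 (1.08). Over the list, the medians against EV were -0.10 in WT and -0.29 in MT.

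The interferon-stimulated response element was searched in the same windows as GAAA, any pair of bases, then GAAA again, on both strands. It was present in 24 of 41 interferon-stimulated genes with a promoter (58.5%), against 1014 of 27305 genes (3.71%) and 3.34% of the measured ones. It was in 8 of 138 genes past 1.5-fold higher in WT (5.80%) and 6 of 146 lower (4.11%). The windows of 3 of the members named above are shown with the match in capitals, on the gene's strand.
IFIT3, chr10:89327821-89327904, plus strand: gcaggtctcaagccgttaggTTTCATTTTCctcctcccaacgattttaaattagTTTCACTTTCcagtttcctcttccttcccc
IFI44, chr1:78649751-78649788, plus strand: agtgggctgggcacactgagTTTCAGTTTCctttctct
RSAD2, chr2:6877612-6877661, plus strand: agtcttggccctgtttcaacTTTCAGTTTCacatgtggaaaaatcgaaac
IFIT3 held the element at 156 and 122 bases before the start site, IFI44 at 18 and RSAD2 at 145. All matches are in the orientation opposite to the letters searched.

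Secreted growth and angiogenic factors had the highest median of the lists with 10 or more measured members, 0.38, with 23 of 31 above 0; 6 were past 1.5-fold upward and none downward, where 1.62% of all genes passed in each direction. Only CSF1, the macrophage colony-stimulating factor, was among the 6 at 10 FPKM or more, at 36.6 FPKM in WT, 21.7 in MT and 25.9 in EV (0.73). VEGFA, the main angiogenic factor of this cancer, was at 63.7, 46.5 and 59.6 (0.45). A further 3 ligands are given as examples chosen after their values were seen. The EGFR ligand EREG was at 28.7, 19.7 and 23.2, the fibroblast growth factor FGF2 at 17.6, 12.5 and 14.3, and the cytokine LIF at 17.5, 12.3 and 17.4. EV was nearer to WT in VEGFA and LIF and nearer to MT in EREG and FGF2. The list's medians against EV were 0.10 in WT and -0.20 in MT, and its median of WT over MT was 0.20 with a pseudocount of 5 and 0.39 for the 16 members at 10 FPKM or more. TGF-beta 1 (TGFB1, 43.2 and 45.7 in WT and MT) and VEGFB (10.7 and 10.02), also chosen afterwards, were close between the libraries.

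Genes of inflammation and of the hypoxia response followed in part. NF-kappaB and inflammatory genes had 20 of 31 above 0 and a median of 0.22, which was 0.09 for the 17 members at 10 FPKM or more; CSF1 was the member past 1.5-fold. Targets of hypoxia-inducible factors had 20 of 32 above 0 and a median of 0.07, with none lower by 1.5-fold. EPAS1, which encodes HIF-2alpha, was at 16.5 FPKM in WT and 12.1 in MT, CCND1, the cyclin it drives in renal carcinoma, at 62.2 and 53.6, and VHL at 14.5 and 15.6. HLA class I and antigen presentation genes had a median of 0.00, with B2M at 833 and 901; HLA genes share sequence with each other and their values are uncertain.

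Of the 4 measured metallothioneins, cysteine-rich zinc-binding proteins, 3 were higher in WT, none by 1.5-fold. The remaining member, under 10 FPKM, was past 1.5-fold in the other direction, with a log2 ratio of -0.67. MT2A was at 356 FPKM in WT, 248 in MT and 279 in EV, and MT1E at 83.2, 57.9 and 50.6; here WT stood above both other libraries. They are near-identical copies, so reads may be split among them. NRF2 targets and antioxidant enzymes had 24 of 32 below 0 and a median of -0.07. The ferritin chains FTH1 (1299 in WT and 1700.1 in MT) and FTL (1209 and 1507) were below 0 with them.

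Cell cycle genes divided by phase. S phase and DNA replication genes had 43 of 50 above 0 and a median of 0.18, while G2 and M phase genes had 38 of 49 below 0 and a median of -0.07. The rule names MCM4, of the replicative helicase, at 255 FPKM in WT and 239 in MT, and TYMS, thymidylate synthase, at 165 and 159. MCM5, chosen after its values were seen, was at 35.7, 23.7 and 30.2 in WT, MT and EV and had the highest ratio of the list (0.57). ANLN and TPX2, of cytokinesis and the spindle, were at 245 and 252 and at 248 and 244. No member of either list reached 1.5-fold. CDK4, a kinase of the G1 phase, was at 121 and 99.9, and CDKN2C, an inhibitor of it, at 74.1 and 92.2.

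**Figure D3:**
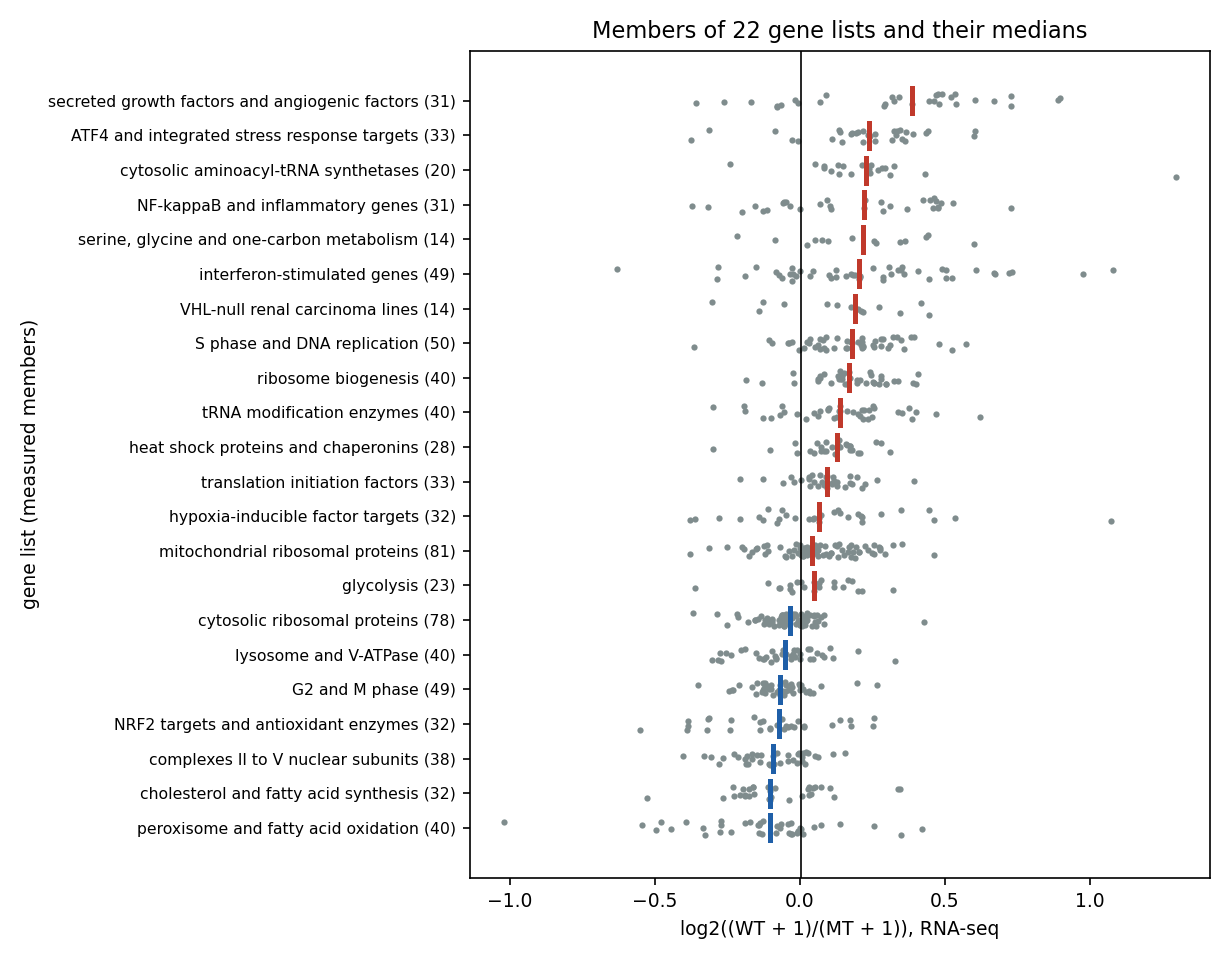
Log2((WT + 1)/(MT + 1)) in RNA-seq for the measured members (points, spread vertically at random) of 22 gene lists, with the median of each list as a bar, red above 0 and blue below; the vertical line is the median of all genes and the number of measured members is in brackets. The bars run from 0.38 for secreted growth and angiogenic factors to -0.10 for peroxisome and fatty acid oxidation genes.

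Oxidative and lipid metabolism leaned the other way, again by small amounts. Peroxisome and fatty acid oxidation genes had 31 of 40 below 0 and a median of -0.10, with AMACR as the member past 2-fold. PHYH, the relative of PHYHD1, was at 25.2 FPKM in WT, 30.6 in MT and 28 in EV, and HSD17B4, a multifunctional enzyme of peroxisomal oxidation, at 53.8, 59.6 and 55.9; both were chosen after their values were seen. Cholesterol and fatty acid synthesis genes had 20 of 32 below 0 (median -0.10), with ACLY, which makes cytosolic acetyl-CoA, at 148 and 167 in WT and MT. Nuclear subunits of respiratory complexes II to V had 28 of 38 below 0 (-0.09), with ATP5F1C at 179 and 197. Complex I subunits had a median of -0.05, with NDUFA7 far from the other members. Glycolysis (median 0.05, PKM at 1541 and 1615) and the TCA cycle (0.02) were near 0, although IDH2, the mitochondrial isocitrate dehydrogenase, was at 118 and 151. The iron- and 2-oxoglutarate-dependent dioxygenases, the enzyme class of PHYHD1, had a median of 0.04 over 53 measured genes and none past 1.5-fold.

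Renal tubule genes were lower in WT. Of 22 listed markers 8 were measured and 7 of the 8 were below 0, with a median of -0.26 and FXYD2 lowest. PAX8, a transcription factor of the renal lineage, was at 75.9 FPKM in WT, 94 in MT and 88.5 in EV, and GGT1, a brush border enzyme, at 66.1, 86.2 and 63.3; they were chosen after their values were seen. The summed level of the list was 246 FPKM in WT, 308 in MT and 276 in EV, and 8 of the 22 markers were at 0 in WT and MT. Genes typical of VHL-null renal carcinoma lines had 14 of 16 measured and a median of 0.19, with VIM at 1911 in WT and 1751 in MT. Markers of other cell types were scarce: 1 of 12 endothelial, 2 of 16 leukocyte and 2 of 12 fibroblast markers reached 1 FPKM, with 7, 8 and 5 listed at 0 in WT and MT. Their summed levels were 7.82 and 5.39, 12.6 and 8.35, and 3.94 and 2.04 FPKM in WT and MT, in that order. Their part in the other differences was not tested.

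Transport proteins differed gene by gene, with medians near 0. Of 167 measured solute carriers, 83 were at 10 FPKM or more. Of the 83, 1 was past 1.5-fold upward and 3 downward, where 0.683% and 0.774% of all genes at that level were. SLCO4A1, an organic anion carrier, was at 14.9 FPKM in WT and 8.41 in MT. SLC6A6, the taurine transporter, was at 42.5 and 65.9, SLC38A6, of an amino acid carrier family, at 6.34 and 11.1, and SLC29A4, a monoamine transporter, at 6.53 and 10.9. Among the 21 genes of channels and the sodium pump at 10 FPKM or more, 1 was past 1.5-fold upward and 3 downward. Besides FXYD2 these were KCNJ16, an inward rectifier potassium channel of the tubule (12.5 and 19.8), TRPC1, a cation channel (6.49 and 10.3), and, higher in WT, KCNAB2, a potassium channel beta subunit (12.6 and 7.99). ABCA1, which exports cholesterol, was at 29 and 18.9.

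Adhesion, matrix and receptor genes were also mixed. CD82, a tetraspanin, was at 17.2 FPKM in WT and 9.48 in MT, opposite in direction to CDH6. The Notch ligand JAG1 was at 22 and 37.3, and DDR1, a receptor for collagen, at 7.52 and 12.9. Extracellular matrix and mesenchymal genes had a median of -0.03, with TGFBI at 679.9 and 697. Of the 33 measured, 6 were past 1.5-fold, 5 of them higher in WT, where 3.23% of all measured genes were past it. None of the 6 was at 10 FPKM or more. The largest was TNC, tenascin C, at 8.29 and 3.46.

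Lists of trafficking, protein turnover and RNA biology had medians between -0.07 and 0.07, with single members that stood out. Golgi and lysosome tethers had a median of -0.06 apart from COG6, Rab GTPases -0.07, lysosome and V-ATPase genes -0.05, and proteasome subunits -0.02. PIK3C3, the lipid kinase that starts autophagosomes, was at 8.45 FPKM in WT and 14 in MT. Of the 120 genes of ubiquitin conjugation and ligases at 10 FPKM or more, 2 were past 1.5-fold, TRIM55 (36.9 and 20.9) and RNF111 (22.8 and 14.5). Of all genes at that level 1.46% were. Of mRNA cap, export and decay factors, NCBP3 was higher in WT, while EXOSC4, an exosome subunit (5.82 and 11.6), and DIS3L, its cytoplasmic nuclease (13.8 and 24.4), were lower. POLR2M, which gives RNA polymerase II the Gdown1 subunit, was at 45.3 and 71.1, and MLKL, the executor of necroptosis, at 11.8 and 6.64. Zinc finger genes of the ZNF series, 382 measured, had a median of 0.01.

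Of the 96 genes past 1.5-fold at 10 FPKM or more, 25 higher and 36 lower in WT belong to no list used here. Beyond those already described, the largest higher in WT included CDC42EP3, an effector of CDC42, at 25.9 FPKM in WT and 14.8 in MT, ANXA3, an annexin, at 24.6 and 14.4, SWI5, a recombination factor, at 25.3 and 14.7, RUFY2 at 14.5 and 8.32, and COX16, an assembly factor of cytochrome oxidase, at 11.3 and 6.49. FMC1-LUC7L2 (14.1 and 7.61) is a readthrough of a pair of genes and its value is uncertain. Lower in WT were RHOB, a small GTPase, at 13.7 and 25.5, the plexin PLXND1 at 8.10 and 14.8, and the related membrane protein gene PLXDC2 at 6.10 and 11.1. IMPA2, an inositol monophosphatase, was at 33.5 and 57.4, SAMD11 at 31.2 and 55.2, and POMT2, which mannosylates dystroglycan, at 6.36 and 12.1. GCDH, of lysine breakdown, was at 5.30 and 10.5, PRKAB1, a subunit of AMPK, at 8.04 and 15.4, and PIGBOS1 at 5.74 and 10.9.

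Of all measured genes, 0.291% were past 2-fold higher in WT and 0.218% lower, and at 10 FPKM or more 0.182% and 0.0455%. Below 10 FPKM, 20 genes were past 2-fold higher in WT and 21 lower, without the excess higher in WT seen at 10 FPKM or more. The number of fragments behind them is unknown, and the spread of ratios across genes was wider at these levels. Its robust SD was 0.27 at a mean of 1 to 3 FPKM and 0.23 at 3 to 10, against 0.18 at 10 to 30. The most abundant of the higher ones were IL7R, the interleukin 7 receptor (9.05 and 3.96 FPKM in WT and MT), PET100, of cytochrome oxidase assembly (8.92 and 3.90), TNC, AK5, an adenylate kinase (6.48 and 1.75), CENPV (6.39 and 2.61), the keratin KRT19 (6.06 and 1.96), the membrane-shaping ATPase EHD2 (4.97 and 1.33) and RSAD2. The lower ones included VAV3, an exchange factor for small GTPases (4.10 and 9.45), ASTE1 (3.33 and 8.07), TMEM37 (3.18 and 8.01), the clock gene PER1 (1.66 and 5.82) and the metalloproteinase MMP7 (1.44 and 5.26). NPIPA7 (2.30 and 7.28) has near-identical copies, and CENPS-CORT (1.22 and 5.75) and RPL36A-HNRNPH2 (0.147 and 4.56) are 2 of 4 readthrough names past 2-fold, so these values are uncertain. Of the 56 genes past 2-fold, 2 were listed at 0 in WT and 1 in MT.

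The EV library placed the differences unequally. Of the 51 genes at 10 FPKM or more and past 1.5-fold lower in WT, EV was nearer to MT in 39, and of the 45 higher in WT it was nearer to WT in 25; over all genes at 10 FPKM or more EV was nearer to MT in 56.2%. EV lay between WT and MT in 43 of the 51 and 36 of the 45. Because the 2 sets were chosen for a gap between WT and MT, a place of EV between them is frequent by construction. ALDH1A1, CD24, IGFBP3 and FN1 are examples in which MT was close to EV, at 306, 1112, 659.6 and 374 FPKM in EV. ERRFI1 (116 FPKM in EV) and PSAT1 (209) are examples in which WT was.

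Ribo-seq of the same labels gives another readout of these genes, from separate libraries. Where mRNA differed between WT and MT, ribosome-protected fragments tended to differ in the opposite direction. Of the 43 genes at 10 FPKM or more that were 1.5-fold higher in WT and were measured in Ribo-seq, 17 were also higher in WT there, and of the 50 lower ones 14 were also lower; over all genes at 10 FPKM or more 47.4% had the same sign. At 10 units or more in both assays these were 12 of 33 and 9 of 36. With a limit of 1.25-fold they were 87 of 247 (35.2%) and 71 of 209 (33.97%), and with no limit 51.0% and 42.8%. Across the 5337 genes at 10 or more in both assays, the log2 ratios had a Pearson r of -0.15 and a Spearman correlation of -0.13, as a description; genes of 1 library share its preparation and scaling and are not replicates.

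Of the 93 genes, 3 were past 2-fold in the opposite direction in Ribo-seq: TGM2, NT5E and LRRC37A3. None was in the same direction, so 3 of 93 were past 2-fold, where 2.44% of the genes measured in both assays were past it in either direction, a share near that of the 93. NT5E was at 16 TPM in WT and 41.2 in MT in Ribo-seq (log2 ratio -1.31) and TGM2 at 6.88 and 24.9 (-1.72), although the mRNA of each was at least 2-fold higher in WT. LRRC37A3, one of a family of near-identical copies and thus uncertain, was at 3.02 and 0.896 (1.08), with mRNA at 10.1 FPKM in WT and 16.1 in MT. EHD2, under 10 FPKM in mRNA, was at 1.04 and 7.42 (-2.04). As further examples, chosen after their values were seen, FXYD2 was at 128 and 75.6 (0.75), ALDH1A1 at 319 and 223 (0.52) and CD24 at 659 and 482 (0.45), each lower in WT in mRNA. The genes in which WT mRNA stood alone had the same sign or little footprint: MARS1 was at 139 and 112 TPM, COG6 at 13.3 and 11.9, NCBP3 at 18.4 and 13.1, and R3HDM2 at 1.70 and 2.24. Of all 6536 genes at 10 FPKM or more and measured in both assays, 26 were past 2-fold in the same direction as their mRNA ratio and 41 in the opposite one.

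**Figure D4:**
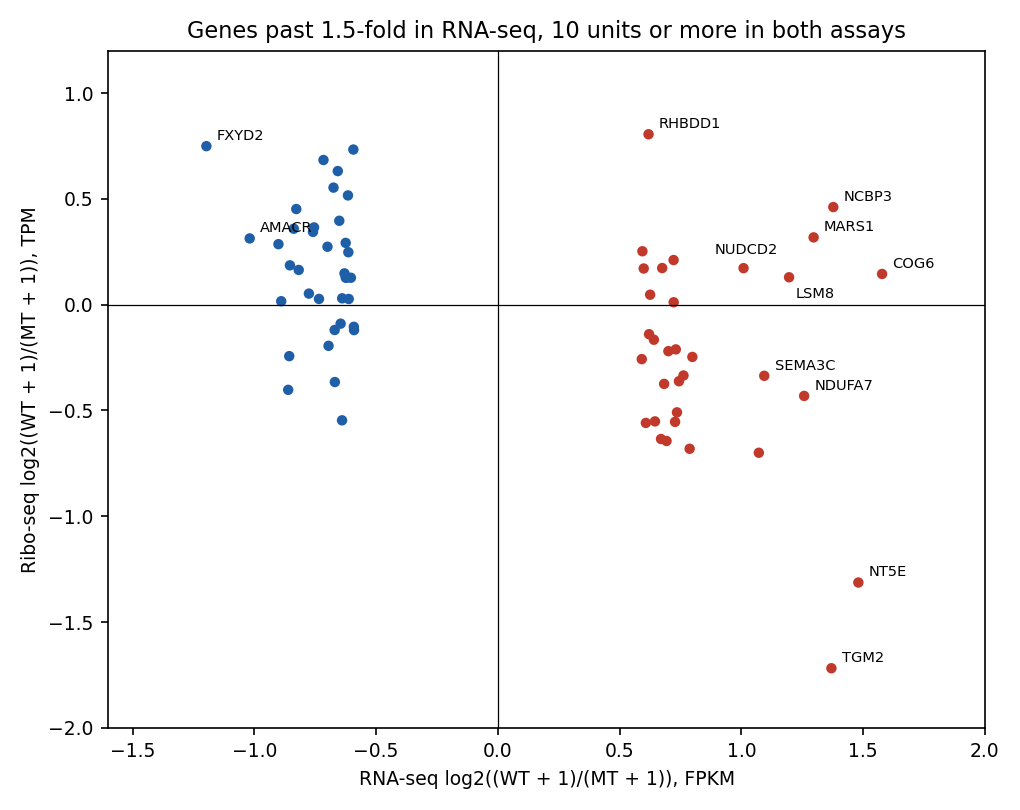
Log2((WT + 1)/(MT + 1)) in Ribo-seq (TPM) against that in RNA-seq (FPKM) for the genes past 1.5-fold in RNA-seq and at 10 units or more in both assays; red points are higher in WT in RNA-seq and blue points lower. Of the red points 12 of 33 lie above 0 on the vertical axis, and of the blue points 9 of 36 lie below.

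Gene lists showed this contrast in part. Of the 63 lists with 10 or more measured members, 13 had an mRNA median of 0.1 or more either way. In 9 of the 13 the Ribo-seq median had the opposite sign. Opposite signs were also the more frequent case over all 63 lists, so they were not particular to the 13. Lists nearer 0 went both ways. Targets of hypoxia-inducible factors (0.07 and -0.14) had opposite signs, and lysosome and V-ATPase genes (-0.05 and -0.08) the same one. Secreted growth and angiogenic factors, with an mRNA median of 0.38, had one of -0.25 in Ribo-seq, with 4 of 30 above 0. Interferon-stimulated genes went from 0.20 to -0.19. Outside the 13 lists, the 4 metallothioneins went from 0.39 to -0.45, and G2 and M phase genes from -0.07 to 0.20, with 40 of 49 above 0. Serine, glycine and one-carbon enzymes (0.22 and 0.13), S phase genes (0.18 and 0.08) and aminoacyl-tRNA synthetases (0.23 and 0.06) had the same sign in both. So did heat shock proteins and chaperonins (0.13 and 0.11). ATF4 targets, which share members with the serine and synthetase lists, went from 0.24 to -0.05, with 15 of 32 above 0. Whether the WT and MT labels of both assays refer to the same cultures was not tested.

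By chromosome, a view chosen after the values were seen, the genes at 10 FPKM or more had median log2 ratios within 0.05 of 0 on 20 of 23 chromosomes. Chromosome 15 was the lowest, with a median of -0.09 and 67 of 223 genes above 0 (30.04%). Chromosome 21 was the highest, with 0.12 and 50 of 67 above 0 (74.6%), followed by chromosome 9 with 0.06 and 66.3%. For the 7 genes of chromosome 21 at 100 FPKM or more the median was 0.02, a limit chosen after seeing the data. Along chromosome 15 the medians of 4 successive blocks of genes lay between -0.11 and -0.08, and along chromosome 21 those of 2 blocks were 0.14 and 0.09. Against EV in RNA-seq, chromosome 15 had a median of -0.02 in WT and 0.06 in MT, and chromosome 21 of 0.13 and 0.03. In Ribo-seq the medians had the opposite sign: 0.15 on chromosome 15 with 70.3% above 0, -0.11 on chromosome 21 with 34.7%, and -0.08 on chromosome 9 with 36.6%. This was not particular to them, as the medians of both assays had the same sign on only 8 of the 23 chromosomes. Against EV in Ribo-seq, chromosome 15 had a median of 0.11 in WT and 0.01 in MT, and chromosome 21 of 0.06 and 0.12. PSAT1 lies on chromosome 9, and ALDH1A1 too, with opposite mRNA differences. Chromosome copy number was not measured.

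**Figure D5:**
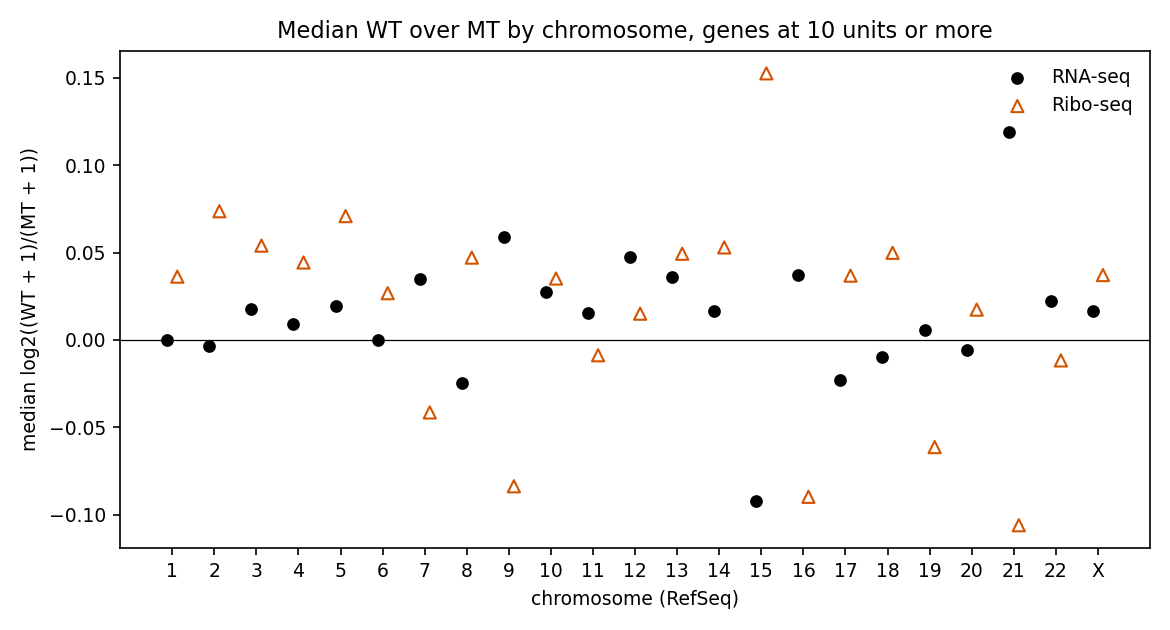
Median log2((WT + 1)/(MT + 1)) of the genes of each chromosome, in RNA-seq (filled circles, genes at 10 FPKM or more) and in Ribo-seq (open triangles, genes at 10 units or more in both assays). Chromosomes 15, 21 and 9 lie farthest from 0 in RNA-seq, and their Ribo-seq medians lie on the other side of 0. Both medians have the same sign on 8 of the 23 chromosomes.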

How the data were processed

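The study made 1 RNA-seq and 1 Ribo-seq library from 786-O cells for each of the labels EV, WT and MT. TRIzol extraction is given per the labels' protocols; Ribo-seq cells were treated with cycloheximide at 100 µg/ml, footprints were made with RNase I, and libraries with NEBNext kits. Human genome build hg18 is named in the submitters' processing notes; the aligner, counting, annotation and use of strand were not given in the sources used here, so overlapping and antisense genes may share reads. The authors' RNA-seq columns, in 1 table, carry no unit per the file headers; as deposited they were read as FPKM, scaled by the authors for gene length and library size, because the column sums differ. The deposited Ribo-seq columns were read as TPM, as each sums to 1000000. Read totals are unknown, so no counting interval is given and precision cannot be stated per gene.

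Of 20307 rows, 605 had no gene name and 7 symbols had several differing rows; without them 19669 genes stayed, and each was in the symbol table. Ratios were log2((WT + 1)/(MT + 1)) on levels as deposited. No test was run. The procedure was tested on simulated data. The 71 gene lists and the genes compared were chosen with earlier results of these data known. Named genes were PHYHD1 and references, all genes at 10 FPKM or more past 2-fold, the 10 highest and 10 lowest ratios at 100 FPKM or more, up to 4 list members past 1.5-fold at 10 FPKM or more or else the 2 most abundant, the 8 most abundant past 2-fold under 10 FPKM each way, and the 12 largest in no list each way; not every gene so chosen is described, and some are not reported here. Alternatives were other pseudocounts, scalings and minimum levels. Chromosomes, neighbours and promoters came from RefSeq (GRCh38.p14); the files' build differs, so only names and order were joined, and printed coordinates are RefSeq's. Computations used Python 3.11.15, numpy 2.4.6 and pandas 2.3.3.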

Additional observations from a re-analysis of the deposited data

How the results depend on the processing

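The counts of genes depended on the pseudocount and the minimum level more than on the scaling. The 56 genes past 2-fold became 198 with a pseudocount of 0.1, 10 with one of 5, and 136 with columns rescaled to one sum without mitochondrially encoded genes, which makes the pseudocount smaller relative to the levels. They became 34 with a minimum of 1 in both libraries and 15 with one of 10 in either. The 15 past 2-fold at 10 FPKM or more became 7 with 10 or more in both libraries. The 96 past 1.5-fold at 10 FPKM or more became 48 with a pseudocount of 5 and 50 with 10 or more in both libraries. With a pseudocount of 5, all 10 genes past 2-fold were higher in WT, against 57.1% of the 56. The median of all genes lay between -0.01 and 0.01 under every scaling run. No list median of 0.1 or more either way and no named gene past its rule reversed under any alternative run. In 456 of 461 comparisons list medians moved by 0.1 or less. That limit is as large as most of the medians, as only 13 of the 63 lists with 10 or more measured members had one of 0.1 or more. A named gene fell short of its rule in 50 comparisons, 44 of them with a pseudocount of 5. The 890 comparisons of named genes include genes that passed no rule to begin with, so 50 of 890 understates this loss. The share of genes past 1.5-fold at 10 FPKM or more with the same sign in Ribo-seq, 33.3%, was 30.4% with 10 TPM or more and 32.6% with both assays centred, alternatives chosen after seeing the data, as was a minimum of 100 FPKM for chromosome 21, which left 7 genes and a median of 0.02. No paired analysis was possible because each label has 1 library per assay. Without replicates or read totals, a difference of a single gene cannot be told from library error. The spread of ratios across genes was widest at a mean level of 1 to 3 FPKM.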
